A study of Homo sapiens with 9 samples.

Results

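Potassium channel genes, taken as the rows whose single gene symbol starts with KCN, were described in a human pancreatic cancer cell line after knockdown of STOML2, the gene of the mitochondrial stomatin-like protein SLP-2. There were 89 such rows, 1 per gene, among 21448 rows of the table, of which 17709 carried 1 gene symbol. Of the 89, 88 were channel subunits or their regulators and 1 was the antisense RNA KCNJ5-AS1. The symbols alone chose the rows, and no measured value entered the choice.

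The cells were labelled AsPC-1, an established line of pancreatic adenocarcinoma. The sh2 and sh1 cells each carried a plasmid (pBAsi-hU6 NEO) that expressed a different short hairpin RNA (shRNA-2 or shRNA-1) against STOML2. The control cells carried the blank plasmid. All 3 groups were selected with Geneticin over 3 weeks and expanded from a single colony, so each group was 1 clone, and each was measured on 3 arrays. Whether the 3 arrays of a clone are separate cultures is not stated. The spread behind each p-value may therefore be purely technical, and knockdown cannot be told apart from other differences between clones.

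The deposited values were read as log2 signals, so a difference of 1 is a 2-fold change. STOML2 had signals of 7.85, 7.99 and 7.35 in sh2 and 8.36, 8.42 and 8.18 in sh1, against 13.70, 13.66 and 13.65 in the control. The target was thus far lower in every array of both knockdown clones. Array medians lay between 6.57 and 6.65, and the number of arrays limits the precision. Of 10 epithelial markers, all 10 were above a background threshold (the lower quartile of the row means, 4.21) in each group. ESRP1, an epithelial splicing regulator, had the largest difference from the control of these 10 in both clones. It had 8.37, 8.51 and 8.54 in sh2 and 13.68, 14.08 and 13.90 in sh1, against 4.27, 5.01 and 4.36 in the control.

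Some marker levels moved with the groups. The mean log2 signal over the epithelial markers was 11.75 to 11.83 in sh2 arrays and 12.71 to 12.89 in sh1 arrays, against 10.83 to 10.89 in control arrays. Of these markers, 6 rose and 2 fell in sh2, with 7 and 1 in sh1. KRT19 fell in both clones (-0.57 in sh2 and -1.69 in sh1) and CDH1 fell in sh2 (-0.52), while KRT7 and MUC1 did not pass. Of 5 endothelial markers, 2 were above 4.21 in each group and none passed in either clone (limma, 0 of 5 also at an unadjusted p under 0.05), with PECAM1, KDR and TEK below it on average. Of 7 fibroblast markers, 2 fell in sh2, and 1 rose and 2 fell in sh1. COL1A1 fell most, by 3.48 in sh2 and 3.19 in sh1 from a control mean of 9.84, and THY1 rose by 0.87 in sh1. Of 5 immune markers, 1 fell in sh2 and 2 fell in sh1. PTPRC, which is in both counts, had means of 3.99 in sh2 and 3.94 in sh1, both below 4.21, against 4.64 in the control. CD68, the other immune marker that fell in sh1 (-0.48), had means of 12.81 in sh2 and 11.92 in sh1, against 12.40 in the control. Above 4.21 were 5 fibroblast markers in sh2 and 4 in sh1, against 5 in the control. The immune counts above it were 3 and 3, against 4. Of 6 neuronal markers, 2 rose in sh2 and none passed in sh1 (1 at an unadjusted p under 0.05), and SYT1, a synaptic vesicle protein, had 12.12 to 12.43 in sh2 and 8.00 to 8.20 in sh1, against 8.29 to 8.86 in the control. Beside these marker counts, 16.3% of all rows of the table passed in sh2 and 18.8% in sh1. The part of the marker shifts in the channel results was not tested.

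Potassium channels are membrane pores that let potassium leave or enter the cell down its electrochemical gradient, and so set the membrane potential. Voltage-gated, calcium-activated, inward rectifier and two-pore-domain channels differ in what opens them, and accessory subunits change their gating or their delivery to the membrane. In pancreatic duct cells, potassium channels provide the driving force for chloride and bicarbonate secretion.

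Many of the rows lay near the background. With no detection calls at hand, 4.21 was taken as a first threshold, and the 95th percentile of 348 olfactory receptor rows (4.99), genes that are silent in most tissues, as a stricter one. Above 4.21 on average were 44 of 89 rows in sh2 (49.4%) and 49 in sh1 (55.1%), against 44 in the control (49.4%). Of all rows of the table, 75.2% were above it in sh2 and 74.9% in sh1, against 74.8% in the control. Above 4.99 were 31 KCN rows in sh2 and 31 in sh1, against 28 in the control. Over the groups, 41 rows were above 4.21 in every group, 38 in none and 10 in some. Because probes respond differently, a signal is not a measure of one gene's level against another's, and a row below either threshold may still be expressed.

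By family, above 4.21 were 18 of 35 voltage-gated alpha subunits in sh2 and 20 in sh1, against 18 in the control. Of 7 subunits grouped by family name as calcium- and sodium-activated, KCNU1 among them, 4 in sh2 and 5 in sh1 were above it, against 4 in the control. The inward rectifiers had 6 of 15 in each group. The two-pore-domain channels had 8 of 15 in sh2 and 9 in sh1, against 9 in the control, and the accessory subunits 7 of 16 and 8, against 6. By the mean over the 9 arrays, the nearest row below the threshold was KCNT1, a sodium-activated channel, at 4.16, and the nearest row above it was KCNS3, a silent subunit of voltage-gated channels, at 4.22. KCNS3 had 3.99, 3.84 and 3.86 in sh2 and 4.22, 4.04 and 4.55 in sh1, against 4.35, 4.94 and 4.18 in the control. Neither of its differences from the control passed (-0.59 in sh2 and -0.22 in sh1), except in sh2 without control array 3 (-0.75, limma adjusted p = 0.0383).

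**Figure D1:**
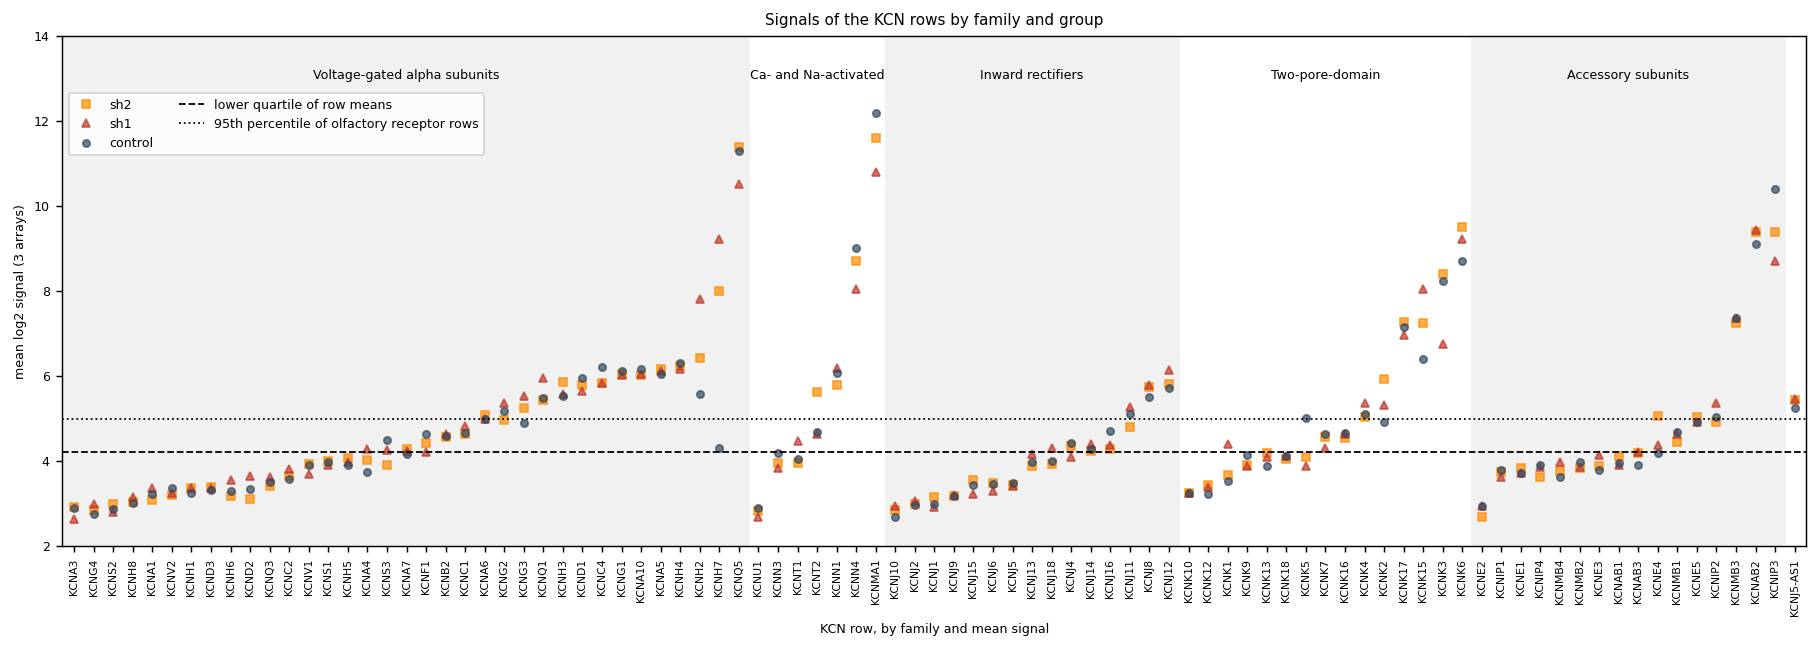
Mean log2 signal over 3 arrays (y axis) of each of the 89 KCN rows (x axis, ordered by signal within a family) in sh2 (squares), sh1 (triangles) and the control (circles). Shaded blocks separate the families, with the antisense RNA alone at the right edge, and lines mark both background thresholds, 4.21 (dashed) and 4.99 (dotted). Most rows lie near the lines with the 3 groups close together, and KCNH7 has the widest spread between groups.

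The comparison of each knockdown clone with the control asks which channel genes differed when STOML2 was low. The largest rise was in KCNH7, and KCNH2, KCNK15 and KCNK6 were also higher in both clones, while KCNMA1 and KCNIP3 were lower in both. Differences were tested with limma over all rows, and a row was called at a Benjamini-Hochberg adjusted p under 0.05. Of these genes, only KCNH7 and KCNIP3 kept their calls in both clones when any 1 array was left out. In sh2, 9 of 89 rows passed (10.1%), 7 higher and 2 lower, where 16.3% of all rows passed (8.33% higher and 7.98% lower). In sh1, 13 passed (14.6%), 6 higher and 7 lower, where 18.8% of all rows passed (9.76% higher, the others lower). The median difference of the KCN rows was 0.00 in sh2 and 0.04 in sh1, against 0.02 and 0.02 for all rows. The share of channel rows called was thus no higher than that of the table, but fewer channel rows lay above the stricter threshold. Above 4.99 were 34.8% of KCN rows in sh2 and in sh1 and 31.5% in the control. For all rows these shares were 64.3% in sh2, 64.4% in sh1 and 64.2% in the control. The shares called among rows of like signal were not tested. Both clones were compared with the same control arrays. In such bulk RNA, fewer cells that express a gene and less of its RNA per cell cannot be told apart. Without sh2 array 2 the sh2 count was 4 (3 higher and 1 lower).

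**Figure D2:**
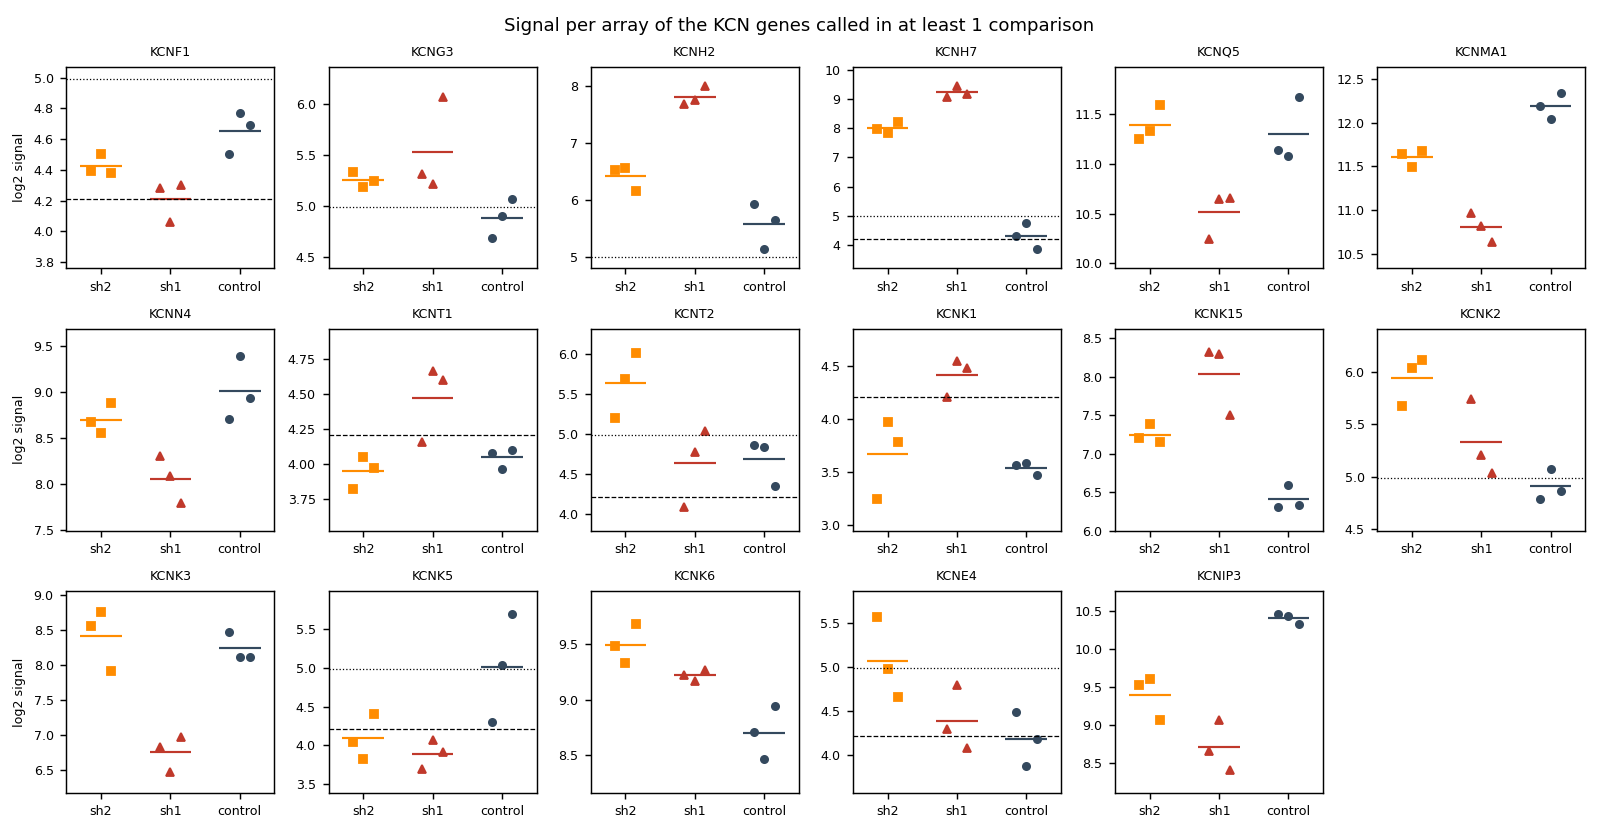
Log2 signal per array (y axis, a scale of its own in each panel) of the 17 KCN genes that passed in at least 1 comparison, in sh2, sh1 and the control (x axis), with 1 point per array and a bar at the mean of 3. Dashed and dotted lines mark 4.21 and 4.99 where they fall in the panel, and KCNH7 has all sh2 and sh1 points far above its control points.

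Among the voltage-gated alpha subunits, which form or modify pores that open on depolarisation, 2 of 35 rose in sh2 (5.71%) and none fell. In sh1, 3 rose and 2 fell (14.3% called). The table as a whole had 16.3% called in sh2 and 18.8% in sh1. The members that rose in both clones belong to the ERG branch of the ether-a-go-go family, whose channels carry currents that return the membrane to rest. KCNH7, an ERG-type pore subunit, had signals of 7.96, 7.83 and 8.22 in sh2 and 9.06, 9.44 and 9.18 in sh1, against 4.31, 4.75 and 3.87 in the control. All control arrays were below 4.99 and all knockdown arrays were far above it. The sh2 difference was 3.69 ± 0.21 (SE), or 12.9-fold (adjusted p = 3.67e-07), and the sh1 difference 4.92 ± 0.21, or 30.2-fold (adjusted p = 4.06e-08). The control arrays lay near the background, so the size of both folds is uncertain.

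KCNH2, the ERG-type channel known for repolarising the heart, had 6.52, 6.57 and 6.16 in sh2 and 7.68, 7.76 and 8.00 in sh1, against 5.93, 5.14 and 5.65 in the control. No array of either clone overlapped the control, and sh1 was the highest group. KCNH2 rose by 2.24 ± 0.20 in sh1, or 4.72-fold (adjusted p = 1.29e-05), and by 0.84 ± 0.20 in sh2, or 1.79-fold (adjusted p = 0.0133). Its 40 nearest expressed neighbours on chromosome 7 were also higher, with a median difference of 0.33 in sh2 and 0.42 in sh1. After subtraction of that neighbour median from each array (neighbour correction) the sh1 value was 1.81 (adjusted p = 5.61e-05), while the sh2 value was 0.49 and no longer passed (adjusted p = 0.118, range over 16 alternatives 0.00746 to 0.118). The sh2 call was also lost without sh2 array 2 (0.77, adjusted p = 0.0524).

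KCNQ5, which encodes a channel of the slowly activating M-type current, had 11.25, 11.33 and 11.59 in sh2 and 10.25, 10.65 and 10.66 in sh1, against 11.14, 11.08 and 11.68 in the control. The sh1 arrays were all below the other arrays, and sh2 overlapped the control. KCNQ5 was lower in sh1, by a log2 difference of -0.78 (SE 0.19, adjusted p = 0.012), a call lost without sh1 array 1 (-0.65, adjusted p = 0.052). In sh2 the difference was 0.09 ± 0.19 (adjusted p = 0.818). KCNQ5 lies on chromosome 6, where its neighbours had a median difference of -0.08 in sh2 and -0.10 in sh1.

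Silent subunits, which give no current alone and modify other voltage-gated channels, supplied the remaining calls in sh1, both small and near the background. KCNF1 had 4.39, 4.50 and 4.38 in sh2 and 4.28, 4.06 and 4.30 in sh1, against 4.50, 4.77 and 4.69 in the control. All of these arrays were below 4.99, and sh2 array 2 equalled the lowest control array. KCNF1 fell by 0.44 in sh1 (adjusted p = 0.0333), and this call was lost without control array 2, control array 3 or any sh1 array (-0.48 to -0.36, adjusted p = 0.0518 to 0.117), and under a trend and robust prior (adjusted p = 0.0834) or with sh2 left out of the fit (adjusted p = 0.0543). KCNG3 had 5.34, 5.19 and 5.25 in sh2 and 5.32, 5.22 and 6.07 in sh1, against 4.69, 4.90 and 5.07 in the control. Every knockdown array was above the control arrays, with sh1 array 3 apart from the rest. KCNG3 rose by 0.65 in sh1 (adjusted p = 0.0471), and the value was 0.38 without sh1 array 3 (adjusted p = 0.129). That call held only when sh1 array 1 or sh1 array 2 was the array left out, and it was lost without any 1 of the other 7 (adjusted p = 0.0577 to 0.16). It was also lost after quantile normalization (adjusted p = 0.055), with sh2 left out of the fit (adjusted p = 0.0787) and after neighbour correction (0.62, adjusted p = 0.0675). The other 30 voltage-gated rows did not pass in sh1, and the other 33 did not pass in sh2.

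Calcium-activated channels open when cytosolic calcium rises, and the large- and intermediate-conductance forms are used by secretory epithelia. KCNMA1, the pore of the large-conductance (BK) channel, had 11.64, 11.49 and 11.68 in sh2 and 10.97, 10.81 and 10.63 in sh1, against 12.19, 12.04 and 12.34 in the control. The groups did not overlap, with sh1 lowest and the control highest. KCNMA1 fell by 1.39 in sh1 (SE 0.14, adjusted p = 2.94e-05), which is 2.61-fold lower, and by 0.59 in sh2 (SE 0.14, adjusted p = 0.0127). The sh2 call was lost without control array 3 (-0.51, adjusted p = 0.0537) or sh2 array 2 (-0.53, adjusted p = 0.0522). Its neighbours on chromosome 10 differed by a median of -0.09 in sh2 and -0.06 in sh1, and after neighbour correction KCNMA1 was at -0.51 (adjusted p = 0.028) and -1.34 (adjusted p = 3.79e-05). KCNMB1, KCNMB2, KCNMB3 and KCNMB4, its measured beta subunits, did not pass in either clone.

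KCNN4, the intermediate-conductance channel, had 8.67, 8.55 and 8.88 in sh2 and 8.30, 8.08 and 7.79 in sh1, against 8.71, 9.39 and 8.94 in the control. The sh1 arrays were below all others, and sh2 overlapped the control. The sh1 difference was -0.96 ± 0.19 (adjusted p = 0.00433), or 1.94-fold lower, and the sh2 difference was -0.31 ± 0.19 (adjusted p = 0.333). KCNT2, a sodium-activated channel, had 5.20, 5.69 and 6.01 in sh2 and 4.09, 4.77 and 5.03 in sh1, against 4.86, 4.83 and 4.35 in the control. The sh2 arrays alone were all above 4.99. KCNT2 rose by 0.95 ± 0.26 in sh2 (adjusted p = 0.0281). Omitting control array 2 or 3, or sh2 array 2 or 3, ended this call (0.76 to 1.03, adjusted p = 0.0525 to 0.109), as did neighbour correction (0.79, adjusted p = 0.0625). The family thus had 1 of 7 higher and 1 lower in sh2, and none higher and 2 lower in sh1. That is 28.6% called in each clone, where 16.3% of all rows passed in sh2 and 18.8% in sh1. KCNN1, a small-conductance channel, KCNN3, of the same type, KCNT1 and KCNU1 did not pass against the control, apart from KCNT1 in sh1 without sh1 array 1 (0.59, adjusted p = 0.0172).

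Inward rectifiers pass potassium more easily into than out of the cell and hold the resting potential. None of the 15 measured passed in either clone (limma), where 16.3% of all rows passed in sh2 and 18.8% in sh1. Among the 15 rectifiers, 1 in sh2 and 2 in sh1 had an unadjusted p under 0.05. Their differences ran from -0.42 to 0.23 in sh2 and from -0.32 to 0.41 in sh1. KCNJ12, a strong rectifier, had 5.81, 5.70 and 5.96 in sh2 and 6.31, 6.24 and 5.86 in sh1, against 5.41, 6.01 and 5.77 in the control. Its groups overlapped. KCNJ18 is a near-identical copy of KCNJ12, so the signals of both are uncertain. KCNJ8, a pore of ATP-sensitive channels, had 5.82, 6.01 and 5.40 in sh2 and 5.76, 5.89 and 5.75 in sh1, against 5.40, 5.71 and 5.42 in the control. The lowest sh2 array equalled the lowest control array, and neither KCNJ8 difference passed (0.23 and 0.29).

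Two-pore-domain channels conduct a leak current at rest. Of 15 measured, 3 rose and none fell in sh2 (20% called), while 3 rose and 2 fell in sh1 (33.3%). The shares of all rows called were 16.3% in sh2 and 18.8% in sh1. KCNK3, an acid-sensitive leak channel, differed between the clones. It had 8.56, 8.76 and 7.92 in sh2 and 6.83, 6.48 and 6.98 in sh1, against 8.48, 8.12 and 8.12 in the control. The sh1 arrays stood apart below, and sh2 overlapped the control. KCNK3 fell by 1.48 in sh1 (SE 0.22, adjusted p = 0.000558), which is 2.78-fold lower, while the sh2 difference was 0.17 ± 0.22 (adjusted p = 0.676).

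KCNK15, a relative of KCNK3 for which current from the subunit alone has been hard to record, had 7.20, 7.38 and 7.15 in sh2 and 8.32, 8.30 and 7.50 in sh1, against 6.30, 6.59 and 6.33 in the control. The groups did not overlap, with the control lowest. KCNK15 rose by 1.63 ± 0.21 in sh1, or 3.1-fold (adjusted p = 0.000178), and by 0.84 ± 0.21 in sh2 (adjusted p = 0.016). The sh2 call was lost without control array 1, control array 3 or sh2 array 2 (0.77 to 0.80, adjusted p = 0.0549 to 0.0615). KCNK6, a weakly rectifying leak channel, had 9.48, 9.33 and 9.68 in sh2 and 9.22, 9.17 and 9.27 in sh1, against 8.71, 8.46 and 8.94 in the control. All knockdown arrays were above the control arrays. KCNK6 rose by 0.79 ± 0.15 in sh2 (adjusted p = 0.00355) and by 0.52 ± 0.15 in sh1 (adjusted p = 0.032). The sh1 call was lost without control array 1, control array 2 or any sh1 array (0.40 to 0.54, adjusted p = 0.0595 to 0.125) and after neighbour correction (0.40, adjusted p = 0.0864).

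KCNK2, a leak channel opened by stretch and lipids, had 5.68, 6.04 and 6.11 in sh2 and 5.74, 5.21 and 5.04 in sh1, against 4.79, 5.08 and 4.87 in the control. The sh2 arrays were all above the control, and sh1 array 3 lay inside the control range. KCNK2 rose by 1.03 ± 0.19 in sh2, or 2.04-fold (adjusted p = 0.00313), and differed by 0.42 ± 0.19 in sh1 (adjusted p = 0.169). KCNK1, another weakly rectifying channel, had 3.25, 3.97 and 3.78 in sh2 and 4.21, 4.55 and 4.48 in sh1, against 3.57, 3.59 and 3.47 in the control. All of these arrays were below 4.99. KCNK1 rose by 0.87 ± 0.18 in sh1 (adjusted p = 0.00524). KCNK5, a channel opened by alkaline pH outside the cell, had 4.05, 3.82 and 4.40 in sh2 and 3.69, 4.07 and 3.92 in sh1, against 4.30, 5.04 and 5.69 in the control. The control arrays spread widely, and sh2 overlapped them.

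KCNK5 fell by 1.12 in sh1 (SE 0.29, adjusted p = 0.0182) and differed by -0.92 ± 0.29 in sh2 (adjusted p = 0.0506). Its neighbours on chromosome 6 were lower too, with a median of -0.65 in sh2 and -0.57 in sh1, and after neighbour correction the values were -0.26 (adjusted p = 0.593) and -0.54 (adjusted p = 0.22). Over the 16 alternatives the adjusted p ran from 0.00486 to 0.593 in sh2 and from 0.00172 to 0.22 in sh1. The sh1 call was lost without control array 2, control array 3 or sh1 array 1 (-1.10, -0.78 and -1.01, adjusted p = 0.0553, 0.056 and 0.0658), and the sh2 value passed in 6 of the 16. It passed without control array 1 (-1.27, adjusted p = 0.00486), after quantile normalization (adjusted p = 0.0474) or subtraction of array medians (adjusted p = 0.0459), without rows under 4.21 (adjusted p = 0.0413) and under a trend and robust prior (adjusted p = 0.0246). KCNK17, on the same stretch of chromosome 6 and with neighbours at -0.67 and -0.59, differed by 0.13 in sh2 and -0.18 in sh1 and did not pass.

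**Figure D3:**
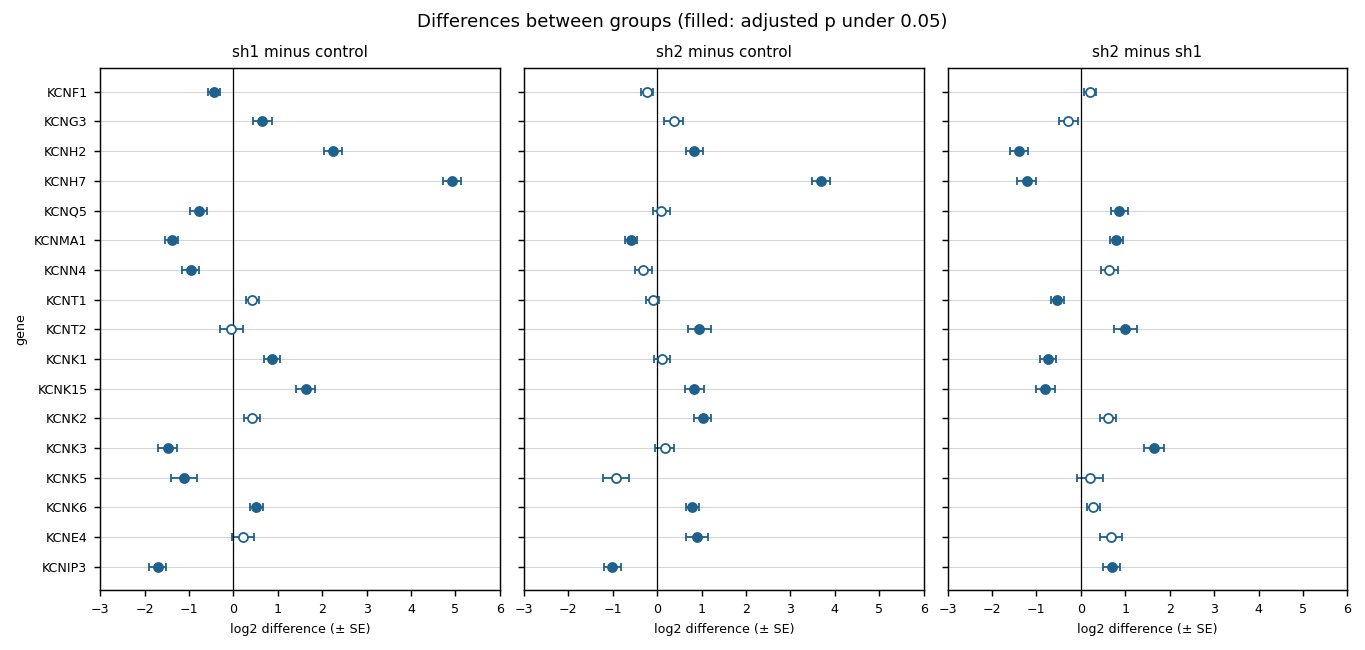
Log2 difference with its standard error (x axis) of the 17 KCN genes called in at least 1 comparison (y axis, by family), with a panel for each clone against the control and one for sh2 minus sh1. Filled points passed at an adjusted p under 0.05, and KCNH7 lies at 4.92 and 3.69 against the control, beyond all other points.

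Accessory subunits bind the pore subunits and tune them. Of 16 measured, 1 rose and 1 fell in sh2 (12.5% called), with none and 1 in sh1 (6.25%). The shares of all rows called were 16.3% in sh2 and 18.8% in sh1. KCNIP3 encodes a calcium-binding protein that joins Kv4-type channels and, under the name DREAM, is also known as a transcriptional repressor. It had 9.53, 9.60 and 9.07 in sh2 and 8.66, 9.06 and 8.41 in sh1, against 10.46, 10.43 and 10.33 in the control. Control arrays were tightly grouped above all others. KCNIP3 fell by 1.70 in sh1 (SE 0.19, adjusted p = 6.20e-05), which is 3.24-fold lower, and by 1.01 in sh2 (SE 0.19, adjusted p = 0.00313), or 2.01-fold lower. Its neighbours on chromosome 2 differed by a median of -0.04 in sh2 and 0.02 in sh1. The Kv4-type pore genes KCND1, KCND2 and KCND3 did not pass in either clone.

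KCNE4, a single-span subunit that inhibits some voltage-gated channels, had 5.56, 4.98 and 4.66 in sh2 and 4.29, 4.79 and 4.08 in sh1, against 4.49, 3.87 and 4.18 in the control. The sh2 arrays were above the control, yet 2 of them were below 4.99. KCNE4 rose by 0.89 ± 0.25 in sh2 (adjusted p = 0.0323). Omission of control array 2 or 3, or of sh2 array 1 or 2, ended the call (0.64 to 0.93, adjusted p = 0.0657 to 0.122). KCNAB2, a cytosolic beta subunit of the aldo-keto reductase fold, had 9.68, 9.26 and 9.23 in sh2 and 9.32, 9.43 and 9.56 in sh1, against 9.25, 9.21 and 8.90 in the control. Its differences of 0.27 in sh2 and 0.32 in sh1 did not pass. The antisense RNA KCNJ5-AS1 differed by 0.20 in sh2 and 0.21 in sh1 and did not pass either.

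The direct comparison of the clones asks which channel genes depended on the clone. In sh2 minus sh1, 10 of 89 rows passed (11.2%), 5 higher in sh2 and 5 lower, where 11.3% of all rows passed (5.73% higher and 5.57% lower). Without sh1 array 2 the count was 6 (4 higher and 2 lower). KCNK3 was higher in sh2 by 1.65 ± 0.22, or 3.14-fold (adjusted p = 0.000403), KCNQ5 by 0.87 ± 0.19 (adjusted p = 0.0101) and KCNMA1 by 0.80 ± 0.14 (adjusted p = 0.0027). KCNH2 was lower in sh2 by a difference of -1.40 ± 0.20 (adjusted p = 0.000721) and KCNH7 by -1.22 ± 0.21 (adjusted p = 0.00258). These 5 calls held when any 1 array was left out.

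The other 5 calls between the clones each depended on single arrays. KCNT2 was higher in sh2 (1.00, adjusted p = 0.0293), a call lost without sh1 array 1, sh1 array 2, sh2 array 2 or sh2 array 3 (0.73 to 1.07, adjusted p = 0.0561 to 0.109). KCNIP3 was higher (0.69, adjusted p = 0.034), which was lost without sh1 array 1, sh1 array 3, sh2 array 1 or sh2 array 2 (0.54 to 0.67, adjusted p = 0.0966 to 0.127) and lay at the threshold without control array 2 (adjusted p = 0.05). KCNK15 was lower (-0.80, adjusted p = 0.0275), which was lost without sh1 array 1, sh1 array 2, sh2 array 1 or sh2 array 3 (-0.78 to -0.66, adjusted p = 0.0738 to 0.105). KCNK1 was lower (-0.75, adjusted p = 0.0195), which was lost without sh1 array 2 or sh1 array 3 (-0.68 and -0.71, adjusted p = 0.0699 and 0.0667) and after neighbour correction (-0.60, adjusted p = 0.0623). KCNT1 had 3.82, 4.05 and 3.97 in sh2, against 4.16, 4.67 and 4.60 in sh1, all below 4.99. The KCNT1 difference of -0.53 (adjusted p = 0.0444) held only without sh1 array 1 and was lost on omission of any other array (-0.58 to -0.43, adjusted p = 0.0599 to 0.142), under a trend and robust prior (adjusted p = 0.0646) and after neighbour correction (-0.46, adjusted p = 0.105). With the control left out of the fit, the adjusted p was 0.0511 for KCNT2, 0.0747 for KCNIP3, 0.0565 for KCNK15 and 0.0895 for KCNT1. KCNN4 (0.64, adjusted p = 0.0534) and KCNK2 (0.61, adjusted p = 0.0635) did not pass, but did so without sh1 array 1 (0.77, adjusted p = 0.0482, and 0.82, adjusted p = 0.0145). KCNN4 also passed without control array 1 or 2 (adjusted p = 0.046 and 0.0314), and KCNK2 without sh2 array 1 (0.74, adjusted p = 0.044). Both passed without rows under 4.21 (adjusted p = 0.0412 for KCNN4 and 0.0488 for KCNK2) and after neighbour correction (0.72, adjusted p = 0.0487, and 0.72, adjusted p = 0.0251). KCNN4 passed as well under a trend and robust prior (adjusted p = 0.0287) and with the control left out of the fit (adjusted p = 0.0447).

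Among the genes that fell in sh1 and were above 4.99 in every group, 4 have 1 start site in the RefSeq promoter sequences used, and the 250 bases before each start are printed to show how the DNA upstream of them differs. They were chosen after their values were seen. Of the 89 genes, 69 matched that table by symbol. Each window is given on the gene's strand in GRCh38.p14, in lower case, with every GC box (GGGCGG, the core of an SP1 site, or CCGCCC on the other strand) in capitals. KCNIP3 (chr2:95346408-95346657, plus strand), KCNK3 (chr2:26692472-26692721, plus strand), KCNQ5 (chr6:72621814-72622063, plus strand) and KCNN4 (chr19:43780974-43781223, minus strand) read as follows.
KCNIP3: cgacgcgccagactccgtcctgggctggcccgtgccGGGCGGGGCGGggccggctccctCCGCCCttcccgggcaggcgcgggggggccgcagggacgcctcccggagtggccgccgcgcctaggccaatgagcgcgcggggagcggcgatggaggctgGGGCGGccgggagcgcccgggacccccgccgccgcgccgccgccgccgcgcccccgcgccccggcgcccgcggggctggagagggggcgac
KCNK3: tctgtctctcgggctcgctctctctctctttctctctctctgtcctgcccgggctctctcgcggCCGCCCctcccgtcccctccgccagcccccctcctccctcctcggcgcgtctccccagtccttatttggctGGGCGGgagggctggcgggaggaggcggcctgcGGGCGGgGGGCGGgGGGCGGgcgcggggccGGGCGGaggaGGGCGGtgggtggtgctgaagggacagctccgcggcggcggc
KCNQ5: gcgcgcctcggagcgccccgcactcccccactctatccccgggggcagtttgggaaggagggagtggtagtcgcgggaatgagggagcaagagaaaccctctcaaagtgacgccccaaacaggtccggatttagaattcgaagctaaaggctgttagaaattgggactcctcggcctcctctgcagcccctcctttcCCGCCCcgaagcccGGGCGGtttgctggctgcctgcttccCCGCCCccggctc
KCNN4: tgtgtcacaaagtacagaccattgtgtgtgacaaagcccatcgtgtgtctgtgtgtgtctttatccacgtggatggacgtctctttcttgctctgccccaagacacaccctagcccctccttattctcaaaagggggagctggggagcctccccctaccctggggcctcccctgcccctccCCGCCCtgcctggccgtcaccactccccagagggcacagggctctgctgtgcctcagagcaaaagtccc

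These windows held 4 GC boxes in KCNIP3, 7 in KCNK3, 3 in KCNQ5 and 1 in KCNN4, where boxes that overlap were counted apart. Their GC content was 86.0%, 76.4%, 64.0% and 60.0% in that order, and they held 44, 27, 18 and 5 CpG pairs. The median was 11 CpG pairs over all windows and 14 over the windows of KCN genes. KCNIP3, KCNK3 and KCNQ5 were thus above both medians and KCNN4 below both. A GC box on either strand was present in 42.6% of all 35116 windows of the table and in 48.6% of the 107 windows of KCN genes, where the median GC content was 58.0% and 63.6%. A match is a description of the letters, and no binding was measured.

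Other genes of potassium transport were mixed in direction. A list of 33 channel partners, pumps and cotransporters without a KCN symbol had 24 measured members, of which 2 rose and 3 fell in sh2 (20.8% called) and none rose and 3 fell in sh1 (12.5%), with 16.3% and 18.8% of all rows called. The sh1 count depended on the fit, with 6 called under a trend and robust prior and 7 after neighbour correction. The 18.8% belongs to the chosen fit, and the share of all rows called under those other fits was not compared. Their median difference was -0.08 in sh2 and -0.09 in sh1. Between the clones 2 were higher in sh2 and 2 lower (16.7%, and 11.3% of all rows). The count between the clones was 2 without sh1 array 1, sh1 array 3 or sh2 array 1 (1 higher and 1 lower each time).

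ATP1B1, a beta subunit of the sodium-potassium pump that builds the gradient, moved in opposite directions in the clones. It had 15.25, 15.41 and 15.28 in sh2 and 13.16, 12.97 and 12.98 in sh1, against 13.81, 13.71 and 13.86 in the control. No groups overlapped, with the control in the middle. ATP1B1 rose by 1.52 ± 0.12 in sh2 (adjusted p = 6.00e-06) and fell by 0.76 in sh1 (SE 0.12, adjusted p = 0.000983), a difference between the clones of 2.28 ± 0.12 (adjusted p = 3.73e-07). ATP1B3, another beta subunit, with a mean of 11.91 over the 9 arrays, did not pass in either clone (-0.27 in sh2 and -0.38 in sh1). HCN2, a pacemaker channel for sodium and potassium, had 7.18, 7.25 and 6.77 in sh2 and 7.14, 7.34 and 7.07 in sh1, against 8.04, 8.05 and 7.90 in the control. All knockdown arrays were below the control. HCN2 fell by 0.93 in sh2 (adjusted p = 0.00132) and by 0.81 in sh1 (adjusted p = 0.00265).

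SLC12A7, a potassium-chloride cotransporter, had 13.23, 13.25 and 12.90 in sh2 and 13.94, 13.97 and 13.96 in sh1, against 14.32, 14.19 and 14.23 in the control. The sh2 arrays were the lowest. SLC12A7 fell by 1.12 in sh2 (adjusted p = 0.000119), but its neighbours on chromosome 5 had a median of -0.56 there, and the value after neighbour correction was -0.55 (adjusted p = 0.0205, range over 16 alternatives 2.06e-07 to 0.0205). In sh1 SLC12A7 differed by -0.29 (adjusted p = 0.159), which passed only under a trend and robust prior (adjusted p = 0.0396). Between the clones SLC12A7 was lower in sh2 by a difference of -0.83 ± 0.13 (adjusted p = 0.00139), and this passed in all 16 alternatives (-0.89 to -0.63, adjusted p = 9.27e-06 to 0.0126). FXYD5, a regulator of the sodium-potassium pump, had 13.18, 12.92 and 13.09 in sh2 and 12.62, 12.65 and 12.40 in sh1, against 12.42, 12.35 and 12.21 in the control. It was highest in sh2 and rose by 0.74 there (adjusted p = 0.00251). The difference of FXYD5 between the clones was 0.51 (adjusted p = 0.0283) and was lost without sh1 array 1, sh1 array 3, sh2 array 1 or sh2 array 3 (0.43 to 0.54, adjusted p = 0.0583 to 0.107) or with the control left out of the fit (adjusted p = 0.0576).

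TMEM175, a potassium channel of endosomes and lysosomes, had 9.36, 8.85 and 9.33 in sh2 and 8.79, 8.68 and 8.65 in sh1, against 9.48, 9.74 and 8.95 in the control. TMEM175 fell by 0.68 in sh1 (adjusted p = 0.0355), a call lost without control array 1, control array 2 or any sh1 array (-0.73 to -0.51, adjusted p = 0.0661 to 0.138). HCN4, another pacemaker channel, had 3.14, 3.70 and 3.79 in sh2 and 4.78, 4.12 and 4.53 in sh1, against 3.84, 4.15 and 3.60 in the control. All of these arrays were below 4.99. Neither HCN4 difference from the control passed (-0.32 in sh2 and 0.61 in sh1). The sh1 difference did pass without sh1 array 2 (0.79, adjusted p = 0.0391) or sh2 array 1 (0.61, adjusted p = 0.0491). The sh2 minus sh1 value of HCN4 was -0.93 (adjusted p = 0.0171), which was lost without sh1 array 1, sh1 array 3 or sh2 array 1 (-0.91 to -0.73, adjusted p = 0.0576 to 0.0714). HCN4 lies on chromosome 15, whose local median was 0.19 in sh2 and 0.71 in sh1, and after neighbour correction its difference between the clones was -0.42 (adjusted p = 0.291).

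**Figure D4:**
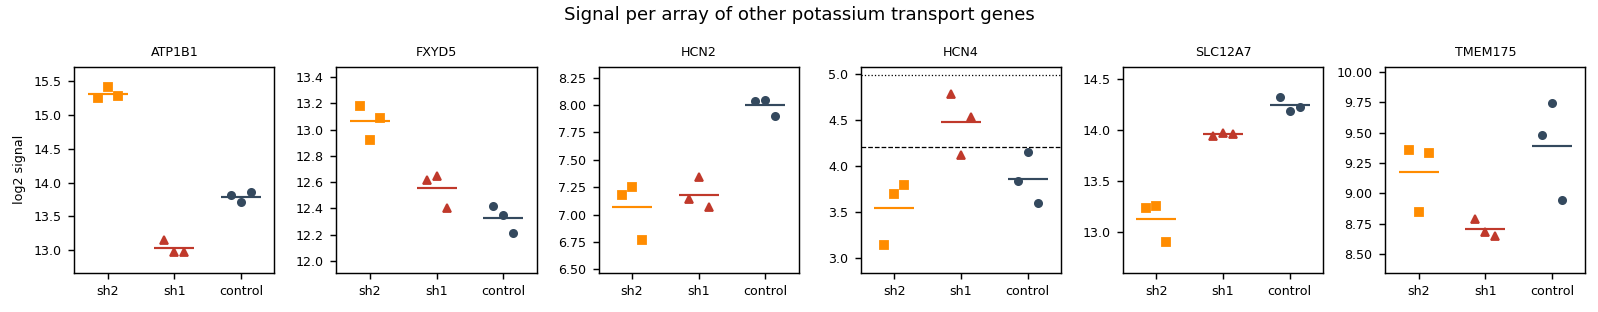
Log2 signal per array (y axis, a scale of its own in each panel) of 6 other potassium transport genes in sh2, sh1 and the control (x axis), with 1 point per array and a bar at the mean of 3. Dashed and dotted lines mark 4.21 and 4.99 where they fall in the panel, and ATP1B1 lies above its control in sh2 (15.25 to 15.41) and below it in sh1 (12.97 to 13.16).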

How the data were processed

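Total RNA (100 ng) was labelled with biotin after amplification, per the labels' protocols. The submitters' processing notes name Transcriptome Analysis Console, without a version, a role or settings. From their span of 2.03 to 18.57 the deposited values were taken to be log2 signals, since no source used here states the scale or the normalization. They were used without further scaling. Row names came from the platform annotation, and 3739 rows had no single symbol.

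One limma 3.58.1 model (R 4.3.3) over 9 arrays gave both clones against the control and sh2 minus sh1, with Benjamini-Hochberg adjustment over all 21448 rows and a threshold of 0.05. The code was checked on simulated data, which does not test the calls made here. Alternatives were quantile or median scaling, a low-signal filter, another prior, 2-group fits, a replicate block, stricter thresholds, neighbour correction and leaving out each array. Neighbour correction used 20 expressed genes on each side, ordered by RefSeq GRCh38.p14.

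Named were all KCN genes called in any comparison, the 2 highest-signal rows of each family, the rows nearest the background threshold, and up to 4 called genes per comparison from the list of other potassium transport genes. KCNK17 and other uncalled genes were added after their values were seen. The members and lists were chosen with earlier results of these data known. Same-number arrays were not treated as pairs, since 2 of 9 pairs had deviations correlated over 0.1. Both of these were pairs of number 1 arrays (sh2 with the control at 0.18 and sh2 with sh1 at 0.122).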

Additional observations from a re-analysis of the deposited data

Results flagged for a closer look

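For 10 KCN genes the knockdown clones differed from each other in their departure from the control, tested as sh2 minus sh1 in limma. On the log2 scale, the difference was 1.65 for KCNK3, 1.00 for KCNT2, 0.87 for KCNQ5, 0.80 for KCNMA1 and 0.69 for KCNIP3. It was -1.40 for KCNH2, -1.22 for KCNH7, -0.80 for KCNK15, -0.75 for KCNK1 and -0.53 for KCNT1. KCNH2, KCNH7 and KCNK15 were above the control in both clones, and KCNMA1 and KCNIP3 below it in both, so their difference was one of size. For KCNH2, KCNK15 and KCNMA1, however, the sh2 call against the control was lost when certain single arrays were left out. Of the KCN rows 11.2% passed this comparison, against 11.3% of all rows.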

How the results depend on the processing

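Of the KCN calls, 4 of 9 in sh2 (KCNH7, KCNIP3, KCNK2 and KCNK6), 8 of 13 in sh1 (KCNH2, KCNH7, KCNIP3, KCNK1, KCNK15, KCNK3, KCNMA1 and KCNN4) and 5 of 10 between the clones held when any 1 array was left out. Leaving out 1 array gave 4 to 9 calls in sh2, 9 to 13 in sh1 and 6 to 10 between the clones. It gave 5 to 6, 2 to 4 and 2 to 4 calls for the other transport genes, and 44 to 46 KCN rows above background in sh2 and 47 to 48 in sh1, against 45 to 46 in the control. At an adjusted p under 0.01, the KCN counts were 4 in sh2, 8 in sh1 and 4 between the clones, and 2 other transport genes passed between the clones. With at least a 2-fold change as well as 0.05, the KCN counts were 3, 7 and 4, and those of other transport genes 2, 0 and 1. For other transport genes in sh1, the trend and robust prior gave 6 calls and neighbour correction 7, against 3 in the chosen fit, where 9 had an unadjusted p under 0.05. Counting a call only where a group was above 4.99, chosen after seeing the data, left 9, 11 and 8 KCN calls. Above 4.99 were 31 KCN rows in sh1 and 28 in the control, and above the median of the row means (6.61) 11 in sh2 and 12 in sh1, against 9 in the control. These last counts were 12.4%, 13.5% and 10.1% of the KCN rows, where 50%, 50% and 49.9% of all rows were above 6.61. With a replicate block the KCN counts were 10, 12 and 10, since KCNK5 passed in sh2 (-0.92, adjusted p = 0.0282) and KCNF1 did not in sh1 (-0.44, adjusted p = 0.0531). TMEM175 did not pass in sh1 with the block either (-0.68, adjusted p = 0.0527). The counts called under these alternatives were not set beside the share of all rows called under the same alternative. Whether they moved more or less than the whole table was therefore not compared. The chosen fit did not pair arrays by number, and 4 of 9 had their highest correlation of deviations with an array of the same number in another group.

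Uncalled values changed sign under neighbour correction for FXYD5 (-0.06), HCN4 (-0.09) and SLC12A7 (0.08) in sh1 and KCNAB2 (0.05) between the clones. With 1 array left out, uncalled values changed sign for HCN2 (-0.21 to 0.03), KCNAB2 (-0.19 to 0.03), KCNJ5-AS1 (-0.19 to 0.14) and KCNJ8 (-0.19 to 0.11) between the clones. They did so for KCNJ12 (-0.07 to 0.23), KCNK1 (-0.03 to 0.33), KCNK3 (-0.00 to 0.42) and KCNQ5 (-0.02 to 0.28) in sh2, and for KCNS3 (-0.37 to 0.01) and KCNT2 (-0.25 to 0.22) in sh1. For all 28 named genes, no called value changed sign under any alternative, and the cause of lost calls was not tested.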
